A study of Homo sapiens with 8 samples.

Results

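Complement is a plasma defence system whose soluble proteins are made largely by liver cells, and 28 of its component and regulator genes were followed here in hepatoma cells. The members were 32 named genes, of which those with at least 1 probe set annotated to that single gene symbol were kept, out of 18132 genes so annotated on the array. They were covered by 76 probe sets, a probe set being the group of short array probes that reads a transcript. C4A and C4B, which encode near-identical forms of the fourth component, had only probe sets that carried several symbols. CFHR3 and CFHR5 were not analysed here.

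The arrays came from cell lines, Hep3B and Huh7.5.1, both established human hepatocellular carcinoma lines cultured with serum and labelled as liver cancer cells. The groups used were Hep3B in DMSO (replicates 2 and 3), Huh7.5.1 in DMSO (replicates 1 and 2) and Huh7.5.1 in 10 μM CU27 (replicates 1 and 2), each held for 48 hours. DMSO is the solvent control, and the labels give CU27 by code name alone. The series asks which transcripts CU27 alters in liver cancer cells, and the comparison of the lines describes the cells in which this was asked. The Hep3B CU27 columns were left out of the reported comparisons because they were linear functions of the Hep3B DMSO columns. The labels call the replicates biological but do not describe their cultures, so p-values measure the spread between these arrays. Each line is a single model whose genotype and passage the labels do not give.

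Complement is started by recognition molecules that bind antibody complexes (the classical pathway) or microbial sugars (the lectin pathway), each coupled to serine proteases, while the alternative pathway turns over spontaneously and amplifies the others. All routes converge on cleavage of C3 and then C5, after which the late components assemble a pore, the membrane attack complex. Soluble and membrane-bound regulators stop this on the body's own cells. Hepatocytes secrete most of the soluble proteins, and many of their genes respond to interleukin-6 or interferon in liver cells.

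Values are log2 signals, on which a difference of 1 is a doubling. For each gene the brightest probe set over all arrays stood for the gene, and the gene was tested when this probe set reached a mean of 6.11, the 50th percentile of all values (the floor), in at least 1 group. Of the 28 genes, 21 were tested, and 53 of the 76 probe sets reached the floor. The other 7 genes stayed below it in every group mean. They were the pore components C6, C7, C8A and C9, the properdin gene CFP, which stabilises the alternative pathway convertase, and the lectin pathway recognition genes COLEC11 and FCN3. C6 had the highest of these levels relative to the floor in Hep3B, at 5.48 and 5.84, while Huh7.5.1 arrays read 4.09 and 4.80 without and 3.57 and 4.10 with CU27. The other 6 had group means between 2.75 for C9 in Hep3B and 5.56 for FCN3 with CU27. In bulk samples, fewer cells making a transcript and less of it per cell cannot be told apart.

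CU27 was followed by a mixed response in Huh7.5.1, with 4 of 21 tested members rising and 4 falling (limma, Benjamini-Hochberg adjusted p under 0.05). The genes that rose were C1S, MBL2, CD55 and CLU, and those that fell were C3, C5, C4BPA and SERPING1. Over all 11383 genes tested, 12.6% rose and 12.1% fell, or 24.7% in either direction. The members' count of 8 in 21, or 38.1%, is read against that share. The median difference over members was -0.06, against 0.02 over all genes. With each array centred on its median the members' counts were again 4 and 4, against 25.1% of all genes in either direction. The treated and control arrays did not overlap for 11 of the 21, 5 higher and 6 lower with CU27, against 63.8% of all genes tested (32.9% higher and 31% lower).

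**Figure D1:**
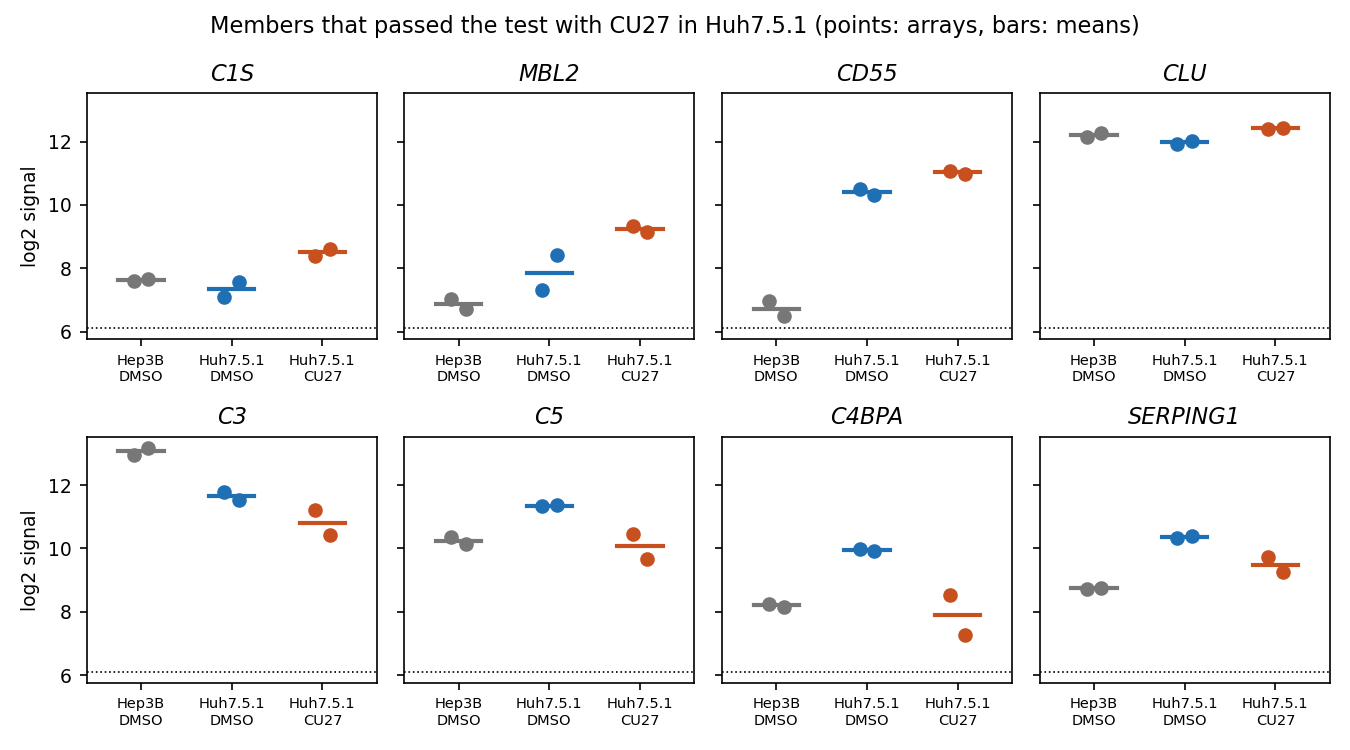
The log2 signal of each array (points) and the group mean (bars) is shown for the 8 members called under CU27, with the floor as a dotted line. C4BPA fell from 9.97 and 9.91 to 8.52 and 7.26, while MBL2 rose to 9.33 and 9.16. On the deposited scale shown, the treated C4BPA values lay on either side of its Hep3B signals.

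Among the initiating proteins, C1S and MBL2 rose. C1S, a serine protease of the C1 complex that cleaves C4 and C2, had signals of 7.10 and 7.58 in DMSO and 8.38 and 8.62 with CU27. Both treated arrays lay above both controls, a 2.24-fold rise (difference 1.16 ± 0.19 on the log2 scale, limma adjusted p = 0.00349; errors here and below are limma standard errors with n = 2 arrays a group), and the gene passed in all 17 alternatives in which it was tested. MBL2, mannose-binding lectin, had signals of 7.31 and 8.40 in DMSO and 9.33 and 9.16 with CU27. The DMSO arrays of MBL2 were 1.09 apart, and both lay below the treated ones. The rise was 1.39 ± 0.30, or 2.61-fold (limma adjusted p = 0.0123). Without DMSO replicate 1 the MBL2 rise was 0.84. The adjusted p was 0.0515 without CU27 replicate 1 and 0.0533 without CU27 replicate 2, and it lay between 0.00249 and 0.0533 in all alternatives. The other MBL2 probe set read 4.70 and 6.07 in DMSO against 6.57 and 6.18 with CU27. Its DMSO mean was below the floor, and it did not pass over all probe sets (adjusted p = 0.106).

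The remaining initiating proteases did not pass. C1R, the protease that activates C1S, had signals of 6.45 and 6.67 in DMSO and 7.01 and 6.57 with CU27, and the groups overlapped (0.23 ± 0.24, limma adjusted p = 0.538). C2, which supplies the protease of the classical and lectin C3 convertase, read 6.43 and 6.60 against 6.39 and 6.43 (-0.11 ± 0.15, limma adjusted p = 0.655). MASP1 and MASP2, the lectin pathway proteases, had differences of -0.14 ± 0.16 and -0.03 ± 0.18. The probe sets of MASP1 did not agree on this, as described further on.

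Of the central and alternative pathway genes, C3 fell. C3, whose cleavage every pathway shares, read 11.77 and 11.52 in DMSO and 11.20 and 10.42 with CU27. Both treated arrays were lower and they stood 0.79 apart, with a difference of -0.84 ± 0.22, or 1.78-fold lower (limma adjusted p = 0.0237). The C3 call rested on single arrays. The difference was -0.44 without CU27 replicate 2 (adjusted p = 0.0727), and the call was also lost without DMSO replicate 1 (0.121), DMSO replicate 2 (0.0703) or either Hep3B array (0.0525 and 0.0529). Its adjusted p lay between 0.00183 and 0.121 in all alternatives. CFB, the protease subunit of the alternative convertase, overlapped between groups at 9.01 and 8.68 against 8.78 and 8.13 (-0.38 ± 0.29, limma adjusted p = 0.380). CFD, the protease that activates CFB, read 8.20 and 7.79 against 8.31 and 7.56.

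C5 was the tested terminal component that fell. C5, the precursor of the anaphylatoxin C5a and the base of the pore, read 11.33 and 11.37 in DMSO and 10.45 and 9.68 with CU27. Both treated arrays were lower, and the fall was 2.44-fold (difference -1.29 ± 0.22, limma adjusted p = 0.00436), past the threshold in all 18 alternatives. C8B and C8G, which encode chains of C8, had differences of -0.10 ± 0.17 and 0.16 ± 0.23, and for both the Huh7.5.1 means lay below the floor, so neither difference compares measured levels.

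The soluble regulators moved apart. C4BPA, the alpha chain of C4b-binding protein, which removes the classical convertase, read 9.97 and 9.91 in DMSO and 8.52 and 7.26 with CU27. This was the largest change among tested members, 4.13-fold lower (difference -2.04 ± 0.33, limma adjusted p = 0.00344), and it passed in all 18 alternatives. The treated arrays of C4BPA were themselves 1.25 apart. The second probe set gave -1.97 ± 0.34 (adjusted p = 0.00619 over all probe sets). C4BPB, the beta chain of the same protein, read 9.93 and 10.22 in DMSO and 10.06 and 10.02 with CU27, and its 3 probe sets differed by -0.03, -0.01 and 0.07. The fall was therefore measured for the gene of the alpha chain, and whether the 2 genes differ in response was not tested.

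SERPING1 also fell and CLU rose. SERPING1, the C1 inhibitor, which inactivates C1R and C1S, read 10.33 and 10.39 in DMSO and 9.72 and 9.26 with CU27, below both controls on both arrays (-0.87 ± 0.16, or 1.83-fold lower, limma adjusted p = 0.00674). Leaving out DMSO replicate 2 gave SERPING1 an adjusted p of 0.0577, the highest of its alternatives, the lowest being 0.0027. Both of its probe sets passed. CLU, clusterin, a chaperone-like plasma protein that binds the assembling pore, read 11.94 and 12.02 in DMSO and 12.40 and 12.44 with CU27. The 4 values did not overlap, and the rise was 0.44 ± 0.08, or 1.36-fold (limma adjusted p = 0.00689). With the mean of its 2 probe sets, of which the other lay below the floor, the CLU difference was 0.13 (adjusted p = 0.478). VTN, vitronectin, which blocks pore insertion, read 12.95 and 12.90 in DMSO and 12.69 and 12.85 with CU27 and did not pass (-0.15 ± 0.10, limma adjusted p = 0.326). CFI, the protease that degrades C3b and C4b, had a difference of -0.18 ± 0.18 and overlapping groups.

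Of the membrane regulators, CD55 rose. CD55, decay-accelerating factor, which dissociates C3 convertases, read 10.49 and 10.32 in DMSO and 11.07 and 10.99 with CU27. Both treated arrays were higher, a 1.54-fold rise (0.62 ± 0.17, limma adjusted p = 0.0306). Of its 7 probe sets, 6 were above the floor in both groups, with differences from 0.24 to 0.70, and 3 of these 6 passed. The other was below the floor in DMSO and at least 0.67 higher with CU27. In all 7 both treated arrays lay above both controls, as did 32.9% of all genes tested. These 7 read the same arrays and are not independent of each other. The CD55 call was lost when any single Huh7.5.1 array was left out (adjusted p of 0.078 and 0.18 without DMSO replicates 1 and 2, and 0.0894 and 0.0883 without CU27 replicates 1 and 2), while the difference stayed between 0.54 and 0.70. The adjusted p of CD55 lay between 0.00422 and 0.18 in all alternatives.

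CD46 and CD59 did not pass by the probe set used. CD46, the cofactor for cleavage of C3b by factor I, read 11.82 and 11.86 in DMSO and 12.16 and 12.03 with CU27 (0.25 ± 0.09, limma adjusted p = 0.0607). In 11 of its 12 probe sets both treated arrays lay above both controls, with differences from 0.25 to 0.55, and 1 probe set passed. Over all genes tested, 32.9% lay so. The probe sets read the same arrays, so their agreement adds no independent support. CD59, which blocks the last step of pore assembly, had a difference of 0.04 ± 0.16 by the probe set used. The other 2 CD59 probe sets above the floor rose, by 0.95 ± 0.18 (adjusted p = 0.00889 over all probe sets) and 0.50 ± 0.15 (adjusted p = 0.0415), so the CD59 reading depended on the probe set.

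**Figure D2:**
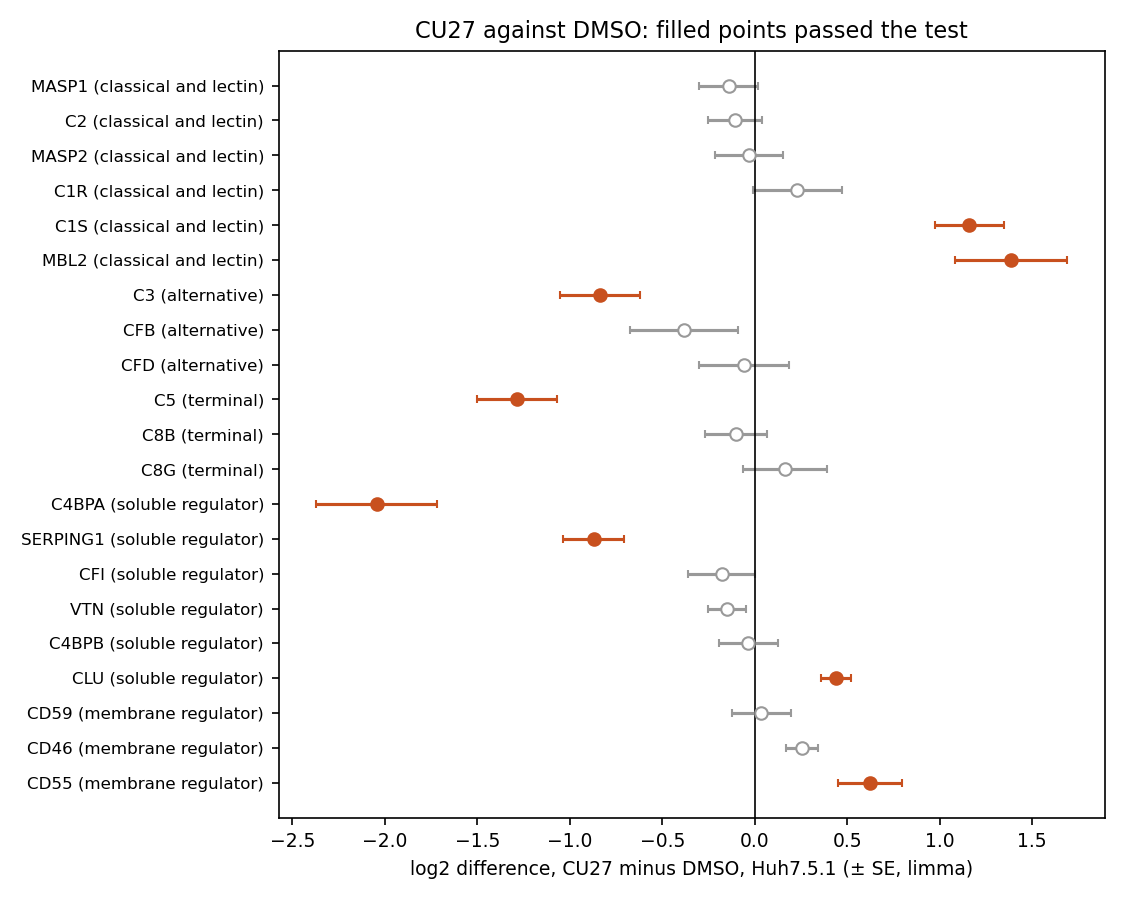
Differences between CU27 and DMSO in Huh7.5.1 (log2, with the limma SE as bars) are shown for the 21 tested members, ordered by role, with filled points for those that passed the test. C4BPA stands lowest at -2.04 and MBL2 highest at 1.39.

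The CU27 arrays themselves differed for some members. CU27 replicate 2 lay below CU27 replicate 1 by 1.25 for C4BPA, 0.79 for C3 and 0.77 for C5. Of 7 hepatocyte markers tested, APOB, SERPINA1 and TTR also fell with CU27, by 1.27, 0.66 and 0.94, and 0 rose, with ALB at -0.10 ± 0.06. The summed linear signal of that list ran from 78333 to 82472 in DMSO and from 55564 to 68637 with CU27. Its part in the falls of C3, C5, C4BPA and SERPING1 was not tested. Markers of endothelium (PECAM1, VWF and CDH5), of fibroblasts (COL1A1, COL1A2, COL3A1, DCN and ACTA2) and of leukocytes (PTPRC, CD163 and CSF1R) lay below the floor in every group. Of the same lists, the endothelial KDR reached it only in Huh7.5.1 DMSO, at a mean of 6.17, and the stellate PDGFRB lay above it in every group, at means of 6.63, 6.53 and 6.45. The other 3 leukocyte markers reached it in at least 1 group, and with CU27 CD68 rose by 2.25 and LYZ was at -0.84, while CD14 was below the floor in both Huh7.5.1 groups. The leukocyte list summed to between 3849 and 3943 in DMSO and between 2263 and 3329 with CU27.

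The lines differed for most members in DMSO. On the deposited scale, 7 of 21 tested members were higher in Huh7.5.1 and 7 were lower (limma, adjusted p under 0.05), against 41% and 22.9% of all genes tested, or 64% in either direction. The members' share of 66.7% is close to that background. The median array signal was 0.42 higher in Huh7.5.1 DMSO than in Hep3B DMSO, and how the arrays were scaled to each other is not stated in the labels. With each array centred on its median, 6 members were higher and 10 were lower, against 23.2% and 40.8% of all genes, so a gene's centred value is given beside its difference, while bounds and single probe sets are given on the deposited scale. The same direction passed on both scales for 13 members, 6 higher and 7 lower in Huh7.5.1. Of these 7, C8G and C8B reached the floor only in Hep3B, so their calls rest on Huh7.5.1 signals below it. The arrays also differed in the signal of 3′ over 5′ control probes of ACTB, a sign of RNA integrity, at 2.28 and 1.60 in Hep3B against 0.94 and 1.06 in Huh7.5.1, and its part in the line differences was not tested. Hepatocyte marker sums on the deposited scale were 61824 and 66128 in Hep3B against 78333 and 82472 in Huh7.5.1 DMSO. Of the 7 hepatocyte markers tested, 4 were higher and 1 was lower in Huh7.5.1 on that scale. When centred, 2 were higher and 4 lower, and the shares of all genes are those given above. KRT19, a biliary keratin, was below the floor in Huh7.5.1 and at least 5.55 lower there. The leukocyte list summed to between 471 and 579 in Hep3B and between 3849 and 3943 in Huh7.5.1 DMSO, with LYZ 4.12 higher (centred 3.70). The other tested markers of that list were not higher. CD14 reached the floor only in Hep3B and was at least 0.49 lower in Huh7.5.1, and CD68 was at -0.30 (centred -0.72). Their part was likewise not tested.

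**Figure D3:**
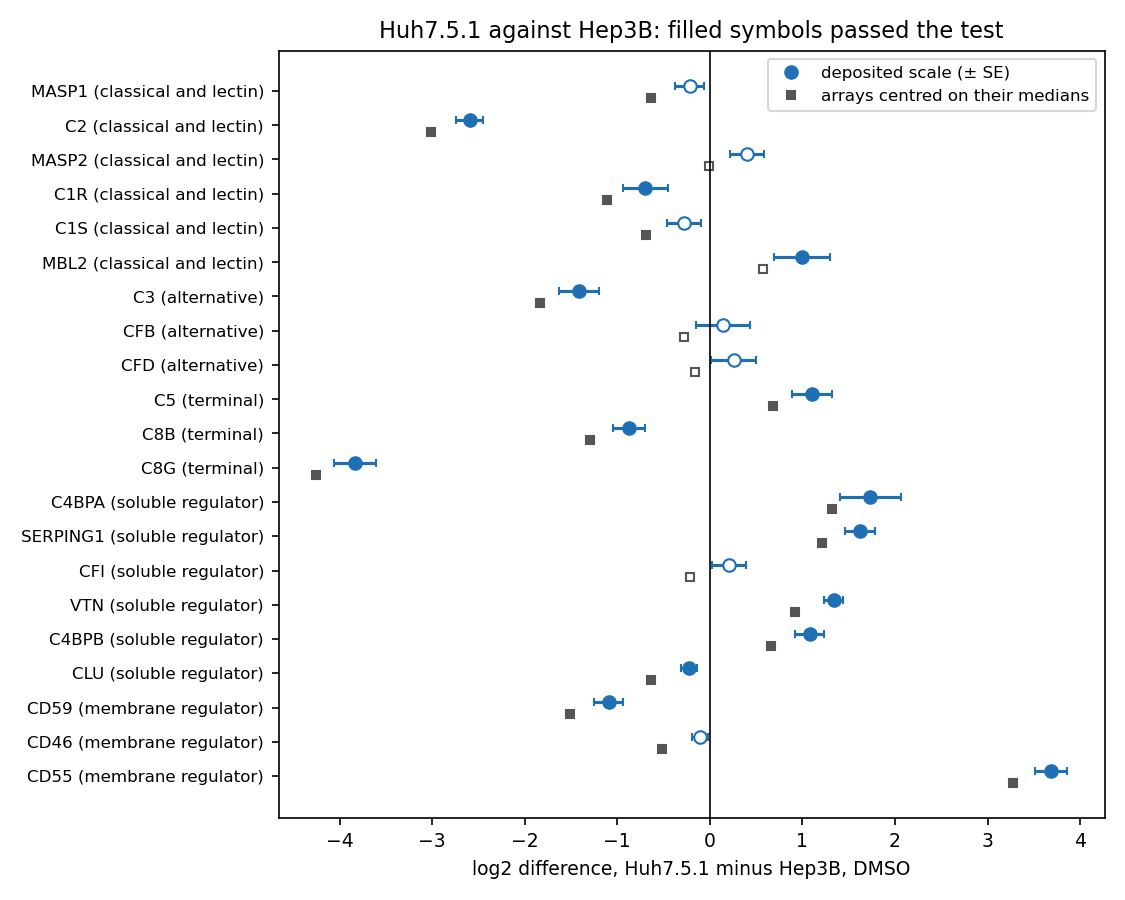
Differences between Huh7.5.1 and Hep3B in DMSO (log2) are shown for the 21 tested members on the deposited scale (circles, with the limma SE) and with arrays centred on their medians (squares), filled where the test was passed. CD55 stands highest at 3.69 and C8G lowest, and both passed on either scale. The points of C8G and C8B are drawn against Huh7.5.1 means below the floor, so only the bounds in the text are measured for them.

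CD55 and C8G differed most between the lines. CD55 read 6.95 and 6.48 in Hep3B and 10.49 and 10.32 in Huh7.5.1, a 12.9-fold higher signal (3.69 ± 0.17, limma adjusted p = 4.8e-07, centred 3.27). Of the 7 CD55 probe sets, 5 were above the floor in both lines and were 2.96 to 3.69 higher in Huh7.5.1. Another was at least 3.90 higher, and the last lay below the floor in both lines. C8G, the gamma chain of C8, read 9.07 and 8.57 in Hep3B and 4.86 and 5.11 in Huh7.5.1, where it lay below the floor. C8G reached the floor only in Hep3B and was at least 6.55-fold lower in Huh7.5.1. The beta chain gene C8B read 6.55 and 6.61 in Hep3B and 5.62 and 5.79 in Huh7.5.1, at least 1.38-fold lower. It too reached the floor only in Hep3B.

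The convertase genes C2 and C3 were lower in Huh7.5.1. C2 read 9.07 and 9.15 in Hep3B and 6.43 and 6.60 in Huh7.5.1, a 6.03-fold difference (-2.59 ± 0.15, limma adjusted p = 1.31e-06, centred -3.01). The mean of all C2 probe sets gave -1.62. C3 read 12.96 and 13.17 in Hep3B against 11.77 and 11.52 (-1.42 ± 0.22, limma adjusted p = 0.000457, centred -1.83). CFB, the neighbour and paralogue of C2, read 9.11 and 8.29 in Hep3B and 9.01 and 8.68 in Huh7.5.1 and did not pass (0.14 ± 0.29), with a centred value of opposite sign at -0.28. Without Hep3B replicate 3 it was -0.27. Of the 3 CFB probe sets that reached the floor, the other 2 were higher in Huh7.5.1 on the deposited scale. The first was 0.94 higher (limma adjusted p = 0.0266 over all probe sets). The second reached the floor only in Huh7.5.1 and was at least 0.63 higher there.

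Several soluble regulators were higher in Huh7.5.1. C4BPA read 8.26 and 8.14 in Hep3B against 9.97 and 9.91 (1.73 ± 0.33, limma adjusted p = 0.00151, centred 1.32), and C4BPB read 9.17 and 8.83 against 9.93 and 10.22 (1.08 ± 0.16, centred 0.66). SERPING1 read 8.73 and 8.74 in Hep3B against 10.33 and 10.39 (1.62 ± 0.16, limma adjusted p = 3.88e-05, centred 1.21), while its other probe set was 0.60 higher. VTN read 11.45 and 11.72 against 12.95 and 12.90 (1.34 ± 0.10, limma adjusted p = 8.15e-06, centred 0.92). For these 4 genes the lines did not overlap. That held for 19 of the 21 members, 10 higher and 9 lower in Huh7.5.1, and for 84.8% of all genes tested (52.9% higher and 31.9% lower). CFI read 9.65 and 9.60 in Hep3B against 9.89 and 9.77, and passed on neither scale (0.21 ± 0.18, centred -0.21). The other CFI probe set was 0.78 higher on the deposited scale and passed (limma adjusted p = 0.0309 over all probe sets). CLU read 12.14 and 12.26 against 11.94 and 12.02 (-0.22 ± 0.08, limma adjusted p = 0.0417, centred -0.64), a call lost on that scale when any of the 4 DMSO arrays was left out (adjusted p from 0.0502 to 0.212).

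C5 was higher and CD59 lower in Huh7.5.1. C5 read 10.36 and 10.14 in Hep3B against 11.33 and 11.37 (1.10 ± 0.22, limma adjusted p = 0.00199, centred 0.68). CD59 read 10.88 and 10.79 against 9.83 and 9.66 (-1.09 ± 0.16, limma adjusted p = 0.000346, centred -1.51), and all 5 of its probe sets, 2 of them below the floor, were lower in Huh7.5.1. The other 2 above the floor in both lines read -3.04 and -1.15, so the size of the difference depended on the probe set. CD46 read 11.96 and 11.93 against 11.82 and 11.86, which did not pass on the deposited scale (-0.10 ± 0.09) and passed when centred (-0.52).

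Apart from C2, the initiating genes gave calls that depended on the scale, on single arrays or on the probe set, or gave none. MBL2 read 7.02 and 6.71 in Hep3B against 7.31 and 8.40 (0.99 ± 0.30, limma adjusted p = 0.0182). It did not pass when centred (0.58, adjusted p = 0.119), and the difference was 0.45 without Huh7.5.1 DMSO replicate 2 (adjusted p = 0.118) and 0.84 without Hep3B replicate 3 (adjusted p = 0.122). Without Huh7.5.1 DMSO replicate 1 it was 1.54, and without Hep3B replicate 2 the adjusted p was 0.05. C1R read 6.93 and 7.58 in Hep3B against 6.45 and 6.67 by the probe set used (-0.70 ± 0.24, limma adjusted p = 0.0305, centred -1.11). Its call was lost without Hep3B replicate 3 (-0.37, adjusted p = 0.227), Huh7.5.1 DMSO replicate 1 (0.146) or Huh7.5.1 DMSO replicate 2 (0.0601). C1S read 7.59 and 7.65 in Hep3B against 7.10 and 7.58 (-0.28 ± 0.19), and MASP1 overlapped between lines (-0.22 ± 0.16). Neither passed on the deposited scale and both passed when centred, at -0.70 and -0.64. The mean of all MASP1 probe sets passed in the opposite direction on the deposited scale (0.97, limma adjusted p = 0.000277). MASP2 read 5.98 and 6.33 in Hep3B against 6.46 and 6.66, and CFD read 7.77 and 7.70 against 8.20 and 7.79. Both changed sign on centring and passed on neither scale, MASP2 from 0.40 to -0.013 and CFD from 0.26 to -0.16.

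The Huh7.5.1 DMSO arrays stand in both comparisons, so the comparisons share them. C4BPA, C5 and SERPING1 were higher in Huh7.5.1 than in Hep3B and fell with CU27, and CU27 values are given beside Hep3B values only as levels. For C4BPA these were 8.52 and 7.26 with CU27 and 8.26 and 8.14 in Hep3B, which overlapped on the deposited scale. For C5 they were 10.45 and 9.68 against 10.36 and 10.14, and for SERPING1 9.72 and 9.26 against 8.73 and 8.74. The array medians were 6.26 and 6.25 with CU27 and 5.85 and 5.82 in Hep3B. Relative to these medians, C4BPA and C5 with CU27 lay below both Hep3B arrays, so their overlap depended on the scale. SERPING1 stayed above Hep3B.

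Probe sets of the same gene disagreed for several members. MASP1, which gives rise to several proteins by alternative splicing, had 4 of 7 probe sets above the floor. The probe set used, the brightest, read -0.14 with CU27 and -0.22 between lines. One other was 1.80 higher in Huh7.5.1, and the remaining 2, below the floor in Hep3B, were at least 1.13 and 1.63 higher. With CU27 these 3 read -0.53, -0.79 and -0.59, of which the first 2 passed over all probe sets (adjusted p of 0.0462 and 0.0176). Over all probe sets, 10.5% rose and 11.3% fell with CU27, and 44.7% were higher and 19.4% lower in Huh7.5.1. One C1R probe set read 7.98 and 8.37 in Hep3B and 5.08 and 4.57 in Huh7.5.1 DMSO, at least 2.07 lower in Huh7.5.1 where the probe set used gave -0.70. Both Huh7.5.1 groups of that probe set lay below the floor, so CU27 has no measured difference there. Among the 53 probe sets of members above the floor, 11 rose and 8 fell with CU27, and 24 were higher and 12 lower in Huh7.5.1. Of those above the floor in both groups compared, 9 rose and 8 fell of 48 with CU27, and 19 were higher and 9 lower of 44 in Huh7.5.1. Which transcript forms these probe sets read was not examined.

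**Figure D4:**
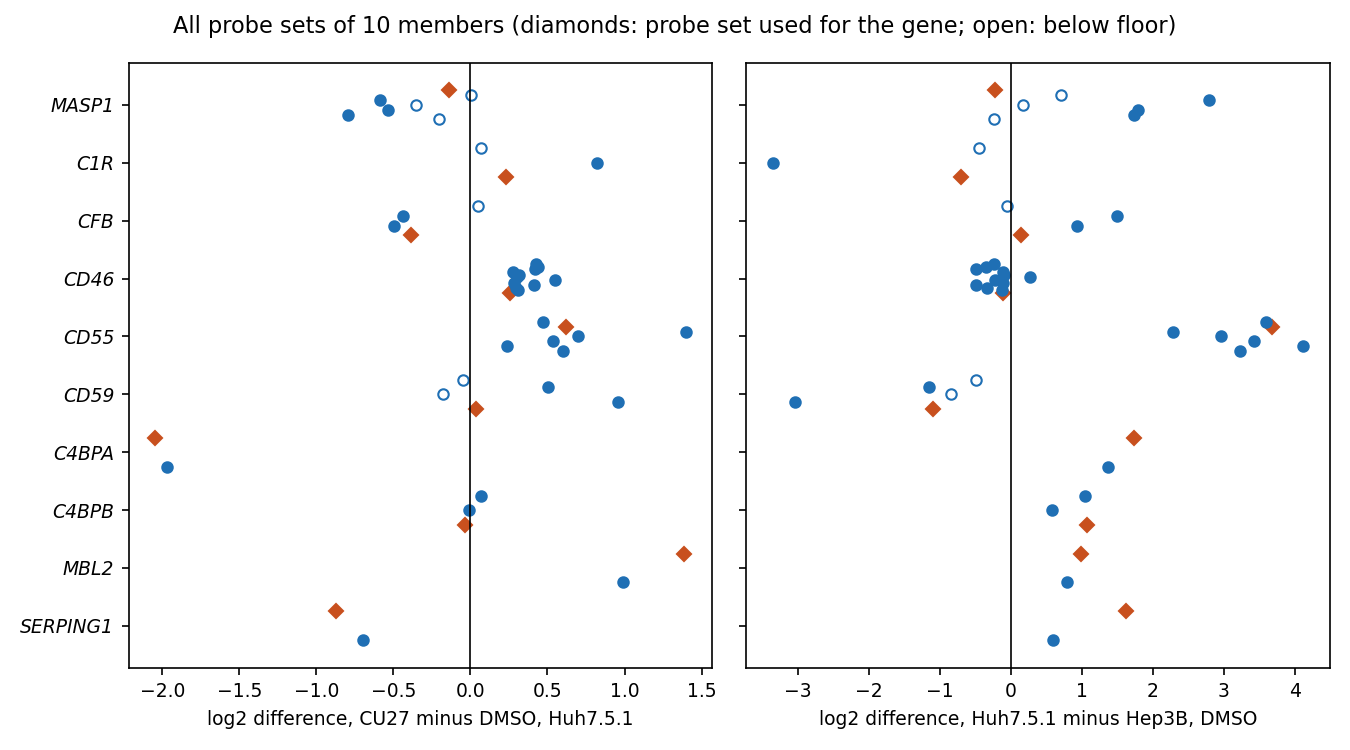
Log2 differences of every probe set of 10 members are shown for CU27 against DMSO (left) and for Huh7.5.1 against Hep3B (right), with diamonds for the probe set used for the gene and open symbols for those below the floor. The MASP1 diamond lies at -0.22 between lines while 3 filled circles lie to its right, at 1.80 and, with Hep3B below the floor, at 2 further points. Open symbols lie below the floor in every group, and filled ones reach it in at least 1.

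Promoter sequence was set beside these values for 2 pairs of neighbouring members and for MBL2, which rose. The C4BPB and C4BPA genes lie 4239 bases apart on chromosome 1, and C2 and CFB 422 bases apart on chromosome 6. The sequences below are from RefSeq (GRCh38.p14), 250 bases before to 50 bases after the annotated start, written 5′ to 3′ on the gene's strand. Capitals mark letters that match a searched motif on either strand.
C4BPB (chr1:207088610-207088909, plus strand): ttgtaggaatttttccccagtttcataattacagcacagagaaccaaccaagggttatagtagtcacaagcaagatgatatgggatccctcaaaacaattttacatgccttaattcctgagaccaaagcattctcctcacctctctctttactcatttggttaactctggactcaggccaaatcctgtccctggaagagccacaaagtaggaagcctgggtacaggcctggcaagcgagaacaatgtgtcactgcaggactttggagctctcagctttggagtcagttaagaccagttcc
C4BPA (chr1:207103983-207104282, plus strand): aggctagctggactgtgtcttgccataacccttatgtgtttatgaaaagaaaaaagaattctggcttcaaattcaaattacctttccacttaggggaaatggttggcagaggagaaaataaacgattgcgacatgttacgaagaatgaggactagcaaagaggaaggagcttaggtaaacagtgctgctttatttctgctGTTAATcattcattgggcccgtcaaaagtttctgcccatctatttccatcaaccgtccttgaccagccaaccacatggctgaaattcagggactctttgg
C2 (chr6:31897533-31897832, plus strand): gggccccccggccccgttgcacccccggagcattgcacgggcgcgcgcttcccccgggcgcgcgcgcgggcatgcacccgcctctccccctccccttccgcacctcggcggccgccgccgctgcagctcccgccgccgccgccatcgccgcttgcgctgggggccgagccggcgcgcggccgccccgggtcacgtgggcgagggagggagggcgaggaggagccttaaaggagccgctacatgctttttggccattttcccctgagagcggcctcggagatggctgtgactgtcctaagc
CFB (chr6:31945845-31946144, plus strand): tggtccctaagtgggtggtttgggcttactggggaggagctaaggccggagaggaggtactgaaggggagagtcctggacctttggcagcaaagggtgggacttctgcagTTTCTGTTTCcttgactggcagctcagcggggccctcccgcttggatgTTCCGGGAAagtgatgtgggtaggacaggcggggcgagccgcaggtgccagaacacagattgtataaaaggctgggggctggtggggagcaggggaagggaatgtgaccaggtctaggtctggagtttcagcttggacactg
MBL2 (chr10:52772735-52773034, minus strand): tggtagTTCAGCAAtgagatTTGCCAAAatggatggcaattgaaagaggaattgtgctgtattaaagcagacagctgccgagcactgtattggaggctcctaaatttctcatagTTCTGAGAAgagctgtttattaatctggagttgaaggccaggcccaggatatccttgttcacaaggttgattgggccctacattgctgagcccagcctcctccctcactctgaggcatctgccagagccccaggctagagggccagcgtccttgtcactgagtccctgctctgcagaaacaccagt

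The motifs searched were TTCNNNGAA for STAT factors, TTGCNNAA for C/EBP factors, GTTAAT as an HNF1 half-site, and, by name, an NF-κB consensus and an interferon-stimulated response element core, all on both strands (N is any base). Promoters of 22 members were in the table. The STAT letters were in 6 of these (C7, CFB, MASP2, MBL2, CD59 and VTN), where 7.88% of 27305 promoters of the same length held them. The C/EBP letters were in 4 (C1R, C6, MBL2 and VTN, against 10.6% of promoters), the HNF1 half-site in 2 (C4BPA and CFI, against 6.89%), the interferon element in CFB (against 3.65%) and the NF-κB letters in 0 (against 0.579%). CFB held the STAT letters from -92 to -84 and the interferon letters from -140 to -131, counted from the start site. MBL2 held the STAT letters from -136 to -128 and C/EBP letters from -244 to -237 and from -230 to -223. C4BPA held the HNF1 half-site from -50 to -45, and the C4BPB and C2 windows held none of these letters. Only the first listed start of each gene was searched, and any other start was not examined. A match describes these letters and no more.

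Other complement genes and proteases that touch the system were taken as a list of 32, of which 10 were tested. With CU27 3 of the 10 fell and 0 rose, a share of 30% against 24.7% of all genes. C1QBP, a receptor for the globular heads of C1q that resides mainly in mitochondria, fell by 0.62 (SE 0.09, limma adjusted p = 0.00281). CPN1, a subunit of carboxypeptidase N, which inactivates anaphylatoxins, fell by 0.98 (adjusted p = 0.012), and F2, prothrombin, fell by 0.90 (adjusted p = 0.0128). The CPN1 call was lost when DMSO replicate 1, DMSO replicate 2 or CU27 replicate 2 was left out (adjusted p of 0.055, 0.0764 and 0.0648), and that of F2 without DMSO replicate 2 (0.105) or CU27 replicate 2 (0.0626). Between lines 6 of the 10 were higher and 1 was lower in Huh7.5.1 on the deposited scale, against 41% and 22.9% of all genes, and 2 and 3 when centred, against 23.2% and 40.8%. Of the 6, C1QA and COLEC12 were below the floor in Hep3B and passed the filter only through Huh7.5.1. C1QA, a chain of the recognition protein C1q, was at least 0.22 higher in Huh7.5.1. F2 was at -0.88 (centred -1.29) and passed in every alternative run.

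Factors known to act on complement genes in liver cells were taken as a list of 20, of which 14 were tested. With CU27 6 rose and 1 fell, against 12.6% and 12.1% of all genes. IRF1, an interferon-induced transcription factor, rose by 0.90 ± 0.15 (limma adjusted p = 0.00378), and STAT3, which carries the interleukin-6 signal, by 0.81 ± 0.14 (adjusted p = 0.00465). CEBPA, a liver-enriched transcription factor, fell by 1.21 (SE 0.11, limma adjusted p = 0.000394). These 3 passed in every alternative run, though the mean of all IRF1 probe sets rose by 0.48 (adjusted p = 0.0293). IL6R, the interleukin-6 receptor, rose by 1.01 ± 0.28, JAK1 by 0.41 ± 0.11, RELA by 0.49 ± 0.14 and IFNGR2 by 0.42 ± 0.12, and each lost its call without DMSO replicate 2 (adjusted p of 0.199, 0.0864, 0.182 and 0.15) and without CU27 replicate 2 (0.0922, 0.129, 0.133 and 0.118). IL6R also lost it without CU27 replicate 1 (0.105), and its rise was 0.61 without DMSO replicate 2. JAK1, RELA and IFNGR2 lost it without DMSO replicate 1 (0.175, 0.115 and 0.147), and RELA (0.0502 and 0.0509) and IFNGR2 (0.0661 for each) without either Hep3B array. With the mean of all probe sets JAK1 and RELA did not pass (adjusted p of 0.158 and 0.139), and without _x_at and _s_at probe sets neither RELA, at 0.28 (0.459), nor IL6R, at 0.70 (0.0598), did. Between lines 9 were higher and 4 lower in Huh7.5.1 on the deposited scale, or 6 and 4 when centred, against the same shares of all genes as above. RELA, among the 4 lower, was at -0.79 (limma adjusted p = 0.00126, centred -1.21), a call that depended on the probe set. It was 1.21 higher with the mean of its probe sets and 2.05 higher without _x_at and _s_at probe sets, both past the threshold. IL6R was below the floor in Hep3B, at a mean of 3.99 against 7.13 in Huh7.5.1 DMSO. Its signal transducer IL6ST was 1.97 higher in Huh7.5.1 (centred 1.55), CEBPD 2.46 (centred 2.05), JAK1 1.68 (centred 1.26), CEBPB 1.67 (centred 1.26) and IRF1 1.46 (centred 1.04), while CEBPA was at -1.17 (centred -1.59) and IFNGR2 at -1.36 (centred -1.77). These 7 genes passed in every alternative run. Whether these factors bear on the members was not tested.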

How the data were processed

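The deposited table held log2 signals of 49395 probe sets, per the authors' value table; the log2 scale is taken from how far the values reach. MAS5 is named without a version in the submitters' processing notes, and the scaling between arrays is not stated. Arrays carry no read depth, so their number limits the precision. Both Hep3B CU27 columns were linear functions of the Hep3B DMSO columns, and these 2 columns were left out of the reported fit. They entered only the alternative that fitted all 8 columns, where they add no independent measurement. Of the probe sets, 102 were controls, and 44988 had 1 gene symbol in the platform annotation.

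The 6 remaining arrays were fitted with limma 3.58.1 in R 4.3.3 (lmFit and eBayes with an intensity trend, 3 residual and 5.87 prior degrees of freedom), with two-sided p-values adjusted by Benjamini-Hochberg over 11383 genes, or over 25602 probe sets where stated. The procedure was run on simulated data whose spread was taken from the same fit. A first version with another spread missed the recovery set for it, and the simulation was then changed. Recovery may therefore be optimistic, and no result here rests on it. The members and lists were chosen with earlier results of these data known. Every member is named, and those that passed, or whose groups did not overlap above the floor, are given array by array. Of the other lists, some of the genes that passed are named, and markers where their levels are described. Alternatives were other scalings, floors, probe set rules and fits, among them the fit of all 8 columns, and each array left out.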

Additional observations from a re-analysis of the deposited data

How the results depend on the processing

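Each tested member was recomputed under other scalings, floors, probe set rules and fits, and in turn without each array. With CU27, 344 of 374 such member values kept their direction and their side of the threshold, and between lines 317 of 353. Many of these settings changed only the filter or the estimate of the spread. The difference itself was then the same, and its direction could not turn. The totals also include the members that did not pass, 13 of 21 with CU27, and the fit of all 8 columns. They are therefore no measure of how firm the calls are. Where the text gives a call as lost, the cause was not tested. Testing every probe set gave 5566 calls with CU27 and 16414 between lines, over more features. Leaving out single arrays moved the CU27 count from 2809 to between 893 (without DMSO replicate 2) and 2889, with 1631 without DMSO replicate 1 and 1515 without CU27 replicate 2. The members that rose then numbered 2 to 4 and those that fell 2 to 4. An arm left with 1 array is assumed to vary like the others. Members not past the test with CU27 changed sign when single arrays were left out, with C4BPB between -0.18 and 0.11, C8B between -0.22 and 0.015, C8G between -0.052 and 0.38, CFD between -0.43 and 0.31, CFI between -0.45 and 0.094, MASP1 between -0.30 and 0.018, MASP2 between -0.13 and 0.067, and CD59 between -0.18 and 0.25. Between lines, CFB then lay between -0.27 and 0.55. Averaging a gene's probe sets put C4BPB at 0.0071 with CU27, and between lines MASP1 was at 0.97, CLU at 0.083 and RELA at 1.21. Without _x_at and _s_at probe sets RELA was at 2.05 between lines, where the probe set used gave -0.79. Between lines, centring gave -0.28 for CFB, -0.16 for CFD, -0.21 for CFI and -0.013 for MASP2, and quantile normalization gave -0.14, -0.049, -0.023 and -0.017. With the replicate number as a block, a paired fit of the Huh7.5.1 arrays, 3526 genes passed with CU27, within 1.5 times the count without it, and the same numbers of members rose and fell. The numbers are no stated pairing, and the deviations of same-numbered arrays correlated at 0.18. The lines share only the number 2, so no paired fit of the lines could be made.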
